A study of Mus musculus with 8 samples.

Results

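The control libraries of a cold-exposure study of mouse brown fat are described here alone, across all genes. They are the 4 libraries labelled WT, of 8 in the series, and they were chosen by that label. The study removed the adhesion adaptor Kindlin-2 from brown adipocytes in the other libraries, which were not used here. The mice of the study were kept at 4 °C for 6 h, so the WT libraries show a state after cold and cannot show a response to it. The labels name the tissue as adipose tissue, without a depot, and the genotype as WT, without a strain, a Cre line, a sex or an age. Nothing in them says that replicates 1 to 4 came from separate animals, so the SD over them measures the spread between these 4 samples, which may be technical.

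Brown adipocytes burn fuel to make heat. Noradrenaline from sympathetic nerves raises cyclic AMP in them, lipolysis frees fatty acids from many small lipid droplets, and the fatty acids both feed the mitochondria and open uncoupling protein 1 (Ucp1), which lets protons return to the matrix without making ATP. The cells are packed with mitochondria, lie in a dense capillary bed that delivers glucose and lipoprotein triglyceride, and descend from a lineage close to that of skeletal muscle.

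Ucp1, the gene that defines the tissue, took a large share of all reads, and its start region is shown because the gene is the reference point of the results that follow. The window runs from 250 bases before the start site to 50 bases after it (chr8:83290098-83290397 of GRCm38.p6, plus strand, as RefSeq gives it). Capitals mark TATAAA or TATATA, the 2 spellings of the TATA element that were searched on both strands.
Ucp1: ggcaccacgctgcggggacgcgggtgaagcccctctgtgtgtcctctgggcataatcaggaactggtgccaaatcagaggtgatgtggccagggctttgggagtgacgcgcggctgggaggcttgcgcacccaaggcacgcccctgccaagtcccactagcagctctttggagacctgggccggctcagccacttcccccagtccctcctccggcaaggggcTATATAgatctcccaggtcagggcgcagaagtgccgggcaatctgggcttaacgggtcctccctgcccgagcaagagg
The run in capitals begins at position -28 from the start site. The window of Adipoq, another marker described below, was searched in the same way and held neither spelling. Of all 32851 such windows in the RefSeq table, 13.6% held TATAAA, 5.67% held TATATA and 17.1% held either. A match is a description of the letters and not of a bound factor.

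Values are given in CPM, the counts of a gene per 1000000 counts of its library, in the order of replicates 1 to 4. Ucp1 had 5459, 5948, 4435 and 6052 CPM, a mean of 5474 ± 739 CPM (SD, n = 4) and of 5819.6 ± 317 CPM without replicate 3 (SD, n = 3). Replicate 3 was the lowest of the 4. By share of counts Ucp1 ranked 10 of all genes and 3 of the nuclear genes, with ranks of 11, 10, 14 and 10 in the single libraries. Cidea, which coats lipid droplets and promotes their fusion, had 2376, 2497, 1866 and 2391 CPM. Adipoq, the adipocyte hormone adiponectin, had 883, 1045, 854 and 1029 CPM. These 3 of the 4 markers were abundant in each library. Replicate 3 had the lowest CPM of each, although Adipoq was lowest in replicate 1 once muscle reads were left out of the total.

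The remaining marker, Elovl3, was present at a low level. This elongase of very long fatty acids, which cold is known to induce in brown fat, had 21.4, 30.3, 21.3 and 34.7 CPM, or 28.8 ± 6.78 CPM without replicate 3 (SD, n = 3). Its mean share of counts ranked 5266 of 18395 genes. On the scale of TPM, in which counts are divided by exonic length and scaled to a sum of 1000000, Elovl3 reached 31.2 ± 8.43 TPM, against 7652 ± 1131 TPM for Ucp1 (SD, n = 4). In a wider list of 20 brown adipocyte genes, 20 had at least 1 CPM in every library and 12 had a mean of at least 100 CPM. Among the 16001 genes in none of the functional classes given below, 9624 and 760 did so. The classes hold 89 of the 100 genes with the highest mean CPM. Genes in no class are thus a low comparison for abundance, here and below.

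A small number of genes made up much of each library. The libraries held 36623723, 33672272, 34221151 and 43253559 counts, and 12112 ± 174 genes had at least 1 CPM (SD, n = 4). As few as 200, 254, 252 and 228 genes gave 50% of the counts, and 4208 to 4369 genes gave 90%. The 10 highest genes took 26.7%, 21.6%, 21.98% and 24.02% of the counts, and the 100 highest took 43.5%, 39.7%, 40.3% and 41.6%. Replicate 1 was the most concentrated library by each of these measures of all genes. Without the genes of the mitochondrial genome the order turned, since 597, 549, 546 and 544 genes gave 50% of the rest, the most in replicate 1. Protein-coding genes took 97.6 ± 0.524% of the counts.

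The 25 genes with the highest mean share of counts served few functions. Mitochondrial DNA encodes 9 of them, and 7 of the first 10 (mt-Co1, mt-Cytb, mt-Nd4, mt-Nd1, mt-Nd2, mt-Rnr2 and mt-Nd5). Lipid handling and synthesis supplied 7, and the nuclear respiratory chain and fuel oxidation 5. The first nuclear gene was Scd1, the desaturase that makes oleate, with 14169, 11326, 14382 and 26546 CPM. Replicate 4 stood above the other 3 libraries. Fabp4, the fatty acid carrier of adipocytes, followed with 9289.6, 10512, 8582 and 9879.7 CPM, and its libraries lay close together. Atp5b, the catalytic subunit of ATP synthase, had a mean of 4978 ± 891 CPM (SD, n = 4). Pck1, which makes glycerol precursors from pyruvate in fat, had 4844 ± 852 CPM. Lpl, the lipase that frees fatty acids from circulating lipoproteins, had 4837 ± 377 CPM.

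Gpx3, a secreted glutathione peroxidase, had 4029 ± 649 CPM, and Pnpla2, the lipase that begins triglyceride breakdown, had 3823 ± 695 CPM (SD, n = 4). Gnas, whose product couples adrenergic receptors to adenylyl cyclase, had 3575 ± 691 CPM, and it shares 21.96% of its exonic bases with other annotated genes. Eef1a1, the main elongation factor of translation, had 3210.5 ± 486 CPM. Of the 24 neighbouring pairs in this order, 21 overlapped in their ranges over the 4 libraries, so most single places in the order are not resolved by these samples. Aldoa, the glycolytic aldolase, had 2994, 3584, 7681 and 3081 CPM, and replicate 3 alone was high. Without that library its rank was 21 instead of 15, and that of Ucp1 was 9.

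**Figure D1:**
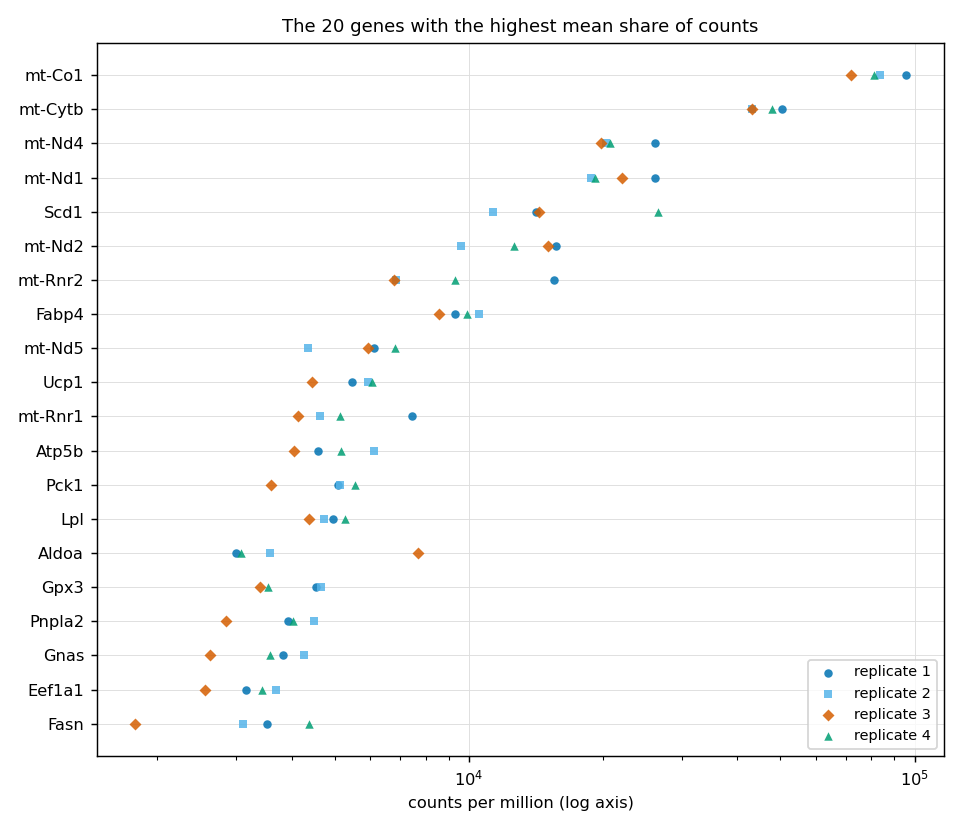
CPM (x axis, log scale) of the 20 genes with the highest mean share of counts (y axis), with 1 symbol for each of the 4 control libraries. mt-Co1 leads every library, Scd1 is highest in replicate 4, and replicate 3 has the highest Aldoa and the lowest Ucp1.

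Long transcripts collect more reads per molecule, so ranks and shares by counts do not rank genes by molecules. Levels were therefore also compared between genes after division by length. Per exonic length, the 10 leading nuclear genes were Scd1, Ucp1, Cox6a1, Cox8b, Gpx3, Fabp4, Cidea, Cox8a, Acta1 and Aldoa. Scd1 had 7781 ± 3302 TPM, Ucp1 7652 ± 1131 TPM, Cox6a1 6870.2 ± 1214 TPM and Cox8b 5115 ± 809 TPM (SD, n = 4). Each of the 9 neighbouring pairs overlapped in range. Cox6a1, Cox8b and Cox8a encode small subunits of cytochrome c oxidase. Acta1, the actin of skeletal muscle, had 3650 ± 7246 TPM and entered this list through replicate 3. Dividing by the length of the annotated principal transcript kept 8 of the 10 genes and put Fabp4 first, at 18551 ± 1715 TPM against 4873 ± 502 TPM per exonic length. The order within this list depends on which length is used.

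The counts were sorted into 45 functional classes without overlap, which held 2394 genes and 61.4 ± 1.05% of the counts (SD, n = 4). The mitochondrial genome gave 25.6%, 20.1%, 19.9% and 21.3% of the counts. Nuclear genes of the respiratory chain and ATP synthase gave 4.81%, 5.82%, 4.46% and 5.08%. With the citric acid cycle, the oxidation of fatty acids and branched-chain amino acids, and the uncoupling proteins they reached 10.2 ± 1.27%. The 414 nuclear genes of mitochondria together gave 12.6 ± 1.36%. Lipid uptake, storage, breakdown and synthesis took 7.42%, 7.56%, 6.24% and 9.21%. The cytosolic ribosome and translation factors took 3.68 ± 0.250%. Markers of fibroblasts and progenitors, blood vessels, immune cells, nerve, blood and epithelium together took 1.10 ± 0.107%. Replicate 1 had the highest mitochondrial genome share, replicate 2 the highest nuclear respiratory chain share and replicate 4 the highest lipid share.

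Of the 100 genes with the highest mean CPM, 12 were mitochondrially encoded, 31 were nuclear genes of mitochondria, 15 belonged to lipid handling and synthesis and 3 to protein synthesis. Another 5 were skeletal muscle genes, and 0 of the muscle class ranked in the first 100 by the mean without replicate 3. For 44 of the 45 classes the widest Wilson 95% interval of a single library's share, which covers counting error only, was narrower than the SD between libraries.

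**Figure D2:**
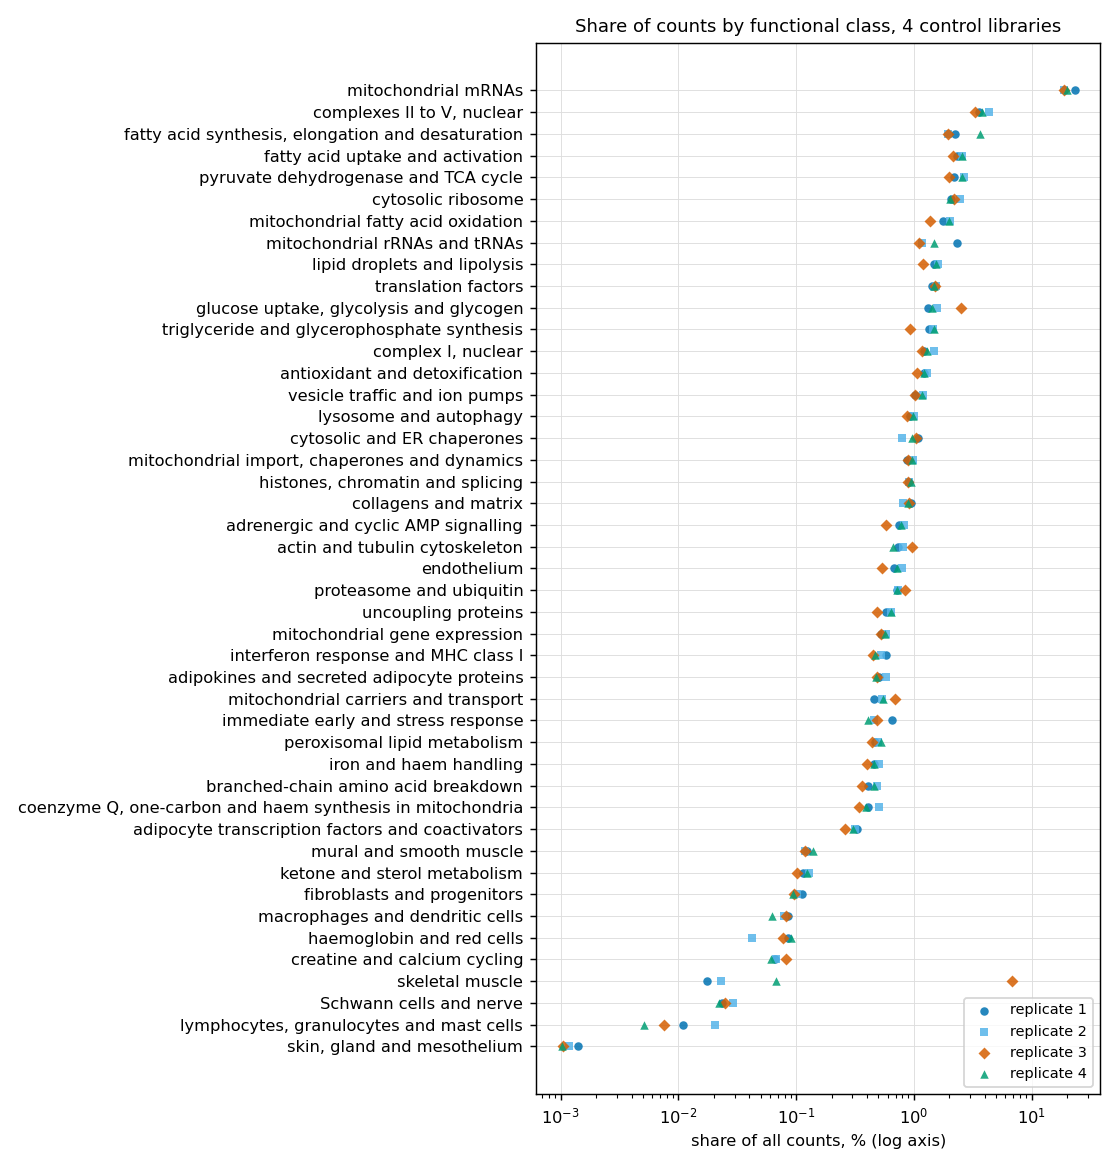
Share of all counts in percent (x axis, log scale) taken by each of 45 functional classes (y axis, ordered by the mean without replicate 3), with 1 symbol for each control library. Mean shares run from 20.7 ± 2.28% for mitochondrial mRNAs to 0.00120 ± 0.000194% for skin, gland and mesothelium without replicate 3, and the skeletal muscle share of replicate 3, at 6.77%, stands far from those of the other libraries.

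Mitochondrial DNA encodes 13 proteins of the respiratory chain and ATP synthase, and the 13 messages took 23.3%, 18.9%, 18.8% and 19.8% of the counts (20.2 ± 2.09%, SD, n = 4). mt-Co1, the core subunit of cytochrome c oxidase, had 95642, 83825, 71959 and 81184 CPM, or 41.1 ± 2.42% of mitochondrial mRNA counts. mt-Cytb, the cytochrome of complex III, had 50441, 43169.7, 43097 and 47871 CPM. Subunits of complex I followed, with mt-Nd4 at 21759 ± 3003 CPM, mt-Nd1 at 21554 ± 3416 CPM and mt-Nd2 at 13236 ± 2776 CPM. Replicate 1 was highest for these 5 genes. The mitochondrial ribosomal and transfer RNAs, of which a poly(A) capture keeps little, took 2.32%, 1.17%, 1.11% and 1.47%. mt-Rnr2, the large ribosomal RNA, had 15511, 6847, 6778 and 9296 CPM, and replicate 1 was again the highest.

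The 13 messages were very unequal, and they also differed in how far their sequence is shared with annotated nuclear transcripts. Windows of 50 bases were taken along each message and looked up in the nuclear transcripts of GENCODE M21. The 5 messages mt-Co2, mt-Co3, mt-Atp6, mt-Nd3 and mt-Nd4l shared 98.0% to 100% of their windows with a nuclear copy, and together they took 0.738 ± 0.115% of the counts (SD, n = 4). The 6 messages that shared under 10% took 8.98 ± 0.948%. mt-Co2 had 8287 ± 2008 TPM and mt-Co3 7823 ± 1411 TPM per exonic length, against 122790 ± 12388 TPM for mt-Co1, although the 3 proteins form the core of 1 enzyme. mt-Co1 shared 51.1% of its windows and mt-Nd4 62.2%. mt-Atp8, with 0 shared windows and 204 bases, had 382 ± 186 TPM, so not every low message shared windows with these transcripts. Nuclear DNA outside annotated transcripts was not searched, so a copy of mt-Atp8 there would be missed. How reads with more than 1 match were counted is not given in the sources used here, and its part in these values was not tested. Levels of these 5 messages, mt-Co1 and mt-Nd4 are uncertain, and so is the mitochondrial share that they belong to.

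**Figure D3:**
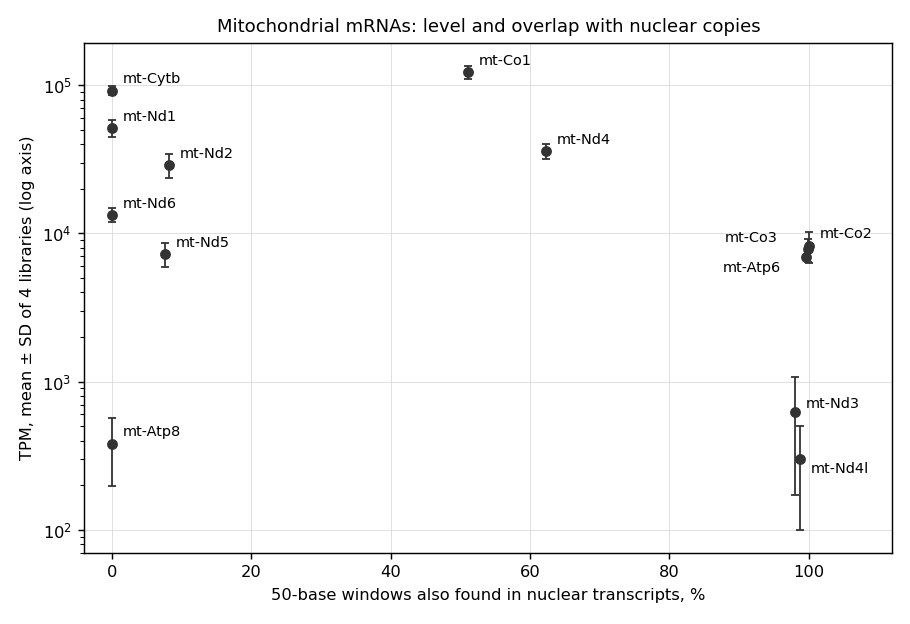
Level of the 13 mitochondrial mRNAs in TPM (y axis, log scale, mean ± SD of 4 control libraries) against the percentage of their 50-base windows also found in nuclear transcripts (x axis). The 5 messages at 98.0% to 100% lie at or below 8287 TPM, while mt-Cytb, with 0 shared windows, lies at 92075 TPM and mt-Atp8, also with 0, at 382 TPM.

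Nuclear genes of the respiratory chain were abundant across the complexes. Of 41 complex I genes 34 had a mean of at least 100 CPM, as did 43 of the 56 genes of complexes II to V. Among the 16001 genes in no class, a low comparison as said above, 760 reached that mean. Ndufa4, first described as a complex I subunit and now placed with cytochrome c oxidase, had 1097, 1365, 1089 and 1190.4 CPM. Atp5a1, the alpha subunit of ATP synthase, had 3030.3 ± 432 CPM and Cox4i1, of cytochrome c oxidase, 1867 ± 260.1 CPM (SD, n = 4). Replicate 2 was highest for 36 of the 38 complex I genes and 36 of the 46 genes of complexes II to V with a mean of at least 10 CPM. Among all 8437 genes at that level, replicate 2 was highest for 2772. For the mitochondrial messages, in contrast, replicate 1 was highest for 9 of 13, against 1686 of all 8437 genes.

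The enzymes that supply the chain were also counted in large numbers. Cs, citrate synthase, had 1766, 2090.3, 1391 and 2035 CPM. Pdk4, the kinase that closes pyruvate dehydrogenase to glucose carbon, had 2698, 2944, 3825 and 3279 CPM. Replicate 3 was lowest for Cs and highest for Pdk4. Mitochondrial fatty acid oxidation took 1.75%, 2.04%, 1.37% and 1.97% of the counts. Acaa2, which cuts off acetyl-CoA at the end of each round, had 2210.3 ± 528 CPM, Acadl, which begins a round on long chains, had 1948 ± 393 CPM, and Hadhb, of the trifunctional protein, had 1945 ± 375 CPM (SD, n = 4). The 27 genes of that class had at least 1 CPM in every library, as did 9624 of the 16001 genes in no class. Replicate 3 was lowest for 25 of the 27. Replicate 3 was also lowest for 3790 of all 8437 genes with a mean of at least 10 CPM. Hadhb had 2132 ± 41.2 CPM without replicate 3 (SD, n = 3). Branched-chain amino acid breakdown took 0.431 ± 0.0578% and peroxisomal lipid metabolism 0.482 ± 0.0382% (SD, n = 4).

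Coq8a, a kinase-like protein of coenzyme Q synthesis, gave 44.1% of the counts of its cofactor class. It had 1880, 2568, 1254 and 1630.2 CPM, highest in replicate 2 and lowest in replicate 3. Mitochondrial ribosomes and translation, with 97 genes, took 0.549 ± 0.0294% of the counts, and import, chaperones and dynamics 0.924 ± 0.0503% (SD, n = 4). Hspa9, the import motor of the matrix, had 922, 1038, 848 and 986 CPM and led the import class.

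Ucp3 and Ucp2, the relatives of Ucp1, were present at lower levels. Ucp3 had 223, 269, 336 and 280 CPM and Ucp2 116, 194, 99.6 and 100.5 CPM. Per exonic length Ucp3 stood at 202 ± 36.3 TPM and Ucp2 at 41.8 ± 15.3 TPM (SD, n = 4), against the Ucp1 level given above. Ucp1 gave 93.0% of the counts of the 3 genes. Replicate 3 held the highest Ucp3, which skeletal muscle also expresses, beside the lowest Ucp1. The 11 genes of creatine and calcium cycling took 0.0691 ± 0.00907% of the counts, led by the calcium pump Atp2a2 with 175, 156, 455 and 192 CPM, also highest in replicate 3.

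Genes that bring in, store and free fat were among the highest of the library. Fatty acid uptake and activation took 2.40 ± 0.190% of the counts (SD, n = 4), of which Fabp4 gave 39.9%. Cd36, the fatty acid transporter of adipocytes and capillaries, had 2968 ± 269.7 CPM, and Acsl1, an acyl-CoA synthetase, had 2346 ± 345 CPM. Lipid droplets and lipolysis took 1.46 ± 0.181%. In that class Plin1, the gatekeeper of the droplet surface, had 1256, 1698, 1097 and 1690.1 CPM, and Lipe, hormone-sensitive lipase, had 1241, 1391, 970.2 and 1213 CPM. Replicate 3 was the lowest library for both. Triglyceride synthesis took 1.36%, 1.45%, 0.922% and 1.49%. Dgat2, which adds the last acyl chain, had 1814, 2393, 979 and 1968 CPM, and Gpd1, which makes glycerol 3-phosphate from a glycolytic intermediate, had 2835, 3004, 1613 and 3242 CPM. For Dgat2 and Gpd1 replicate 3 lay well below the other 3 libraries.

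Genes of fatty acid synthesis were led by Scd1. The class of synthesis, elongation and desaturation took 2.25%, 1.94%, 1.96% and 3.62% of the counts, and Scd1 gave 67.0% of it on average. Without Scd1 the class took 0.828%, 0.811%, 0.523% and 0.966%, so most of the higher share of replicate 4 rested on that gene. Fasn, the fatty acid synthase, had 3517, 3118, 1784 and 4376 CPM. Acacb, an acetyl-CoA carboxylase of the mitochondrial surface, had 739, 973, 601 and 940.1 CPM, and Thrsp, a lipogenic regulator, had 929.6, 760.4, 507 and 895 CPM. Replicate 4 was highest for 10 and replicate 3 lowest for 18 of the 25 genes of this class with a mean of at least 10 CPM. Over all 8437 genes at that level, replicate 4 was highest for 2026 and replicate 3 lowest for 3790.

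Glucose uptake, glycolysis and glycogen took 1.31%, 1.58%, 2.503% and 1.43% of the counts. Outside replicate 3 the class lay at 1.44 ± 0.136% (SD, n = 3), and replicate 3 lay above that range, also without Aldoa (1.01%, 1.22%, 1.73% and 1.12%). Eno1, the enolase of most tissues, had 1469, 2026, 877 and 1624 CPM, and Ldha, the lactate dehydrogenase form that favours lactate, had 1163, 1426, 1858 and 1135 CPM. Replicate 3 was lowest for Eno1 and highest for Ldha. The insulin-sensitive transporter Slc2a4 had 226, 406, 333 and 310.1 CPM, and the general transporter Slc2a1 had 12.5, 11.9, 10.4 and 7.72 CPM. Per exonic length Slc2a4 made up 96.6 ± 1.25% of the pair (SD, n = 4).

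Several proteins of energy metabolism exist in a general form and in a form of muscle or of muscle and brown fat. Shares of a form within its pair are given per exonic length without replicate 3 (SD, n = 3). Cox7a1 made up 49.6 ± 0.980% of the pair with Cox7a2, and Cox8b 52.7 ± 2.88% of the pair with Cox8a. In contrast Cox6a2 made up 0.0247 ± 0.0405% of the pair with Cox6a1, and Pgam2 1.67 ± 1.30% of the pair with Pgam1. Eno3 made up 3.79 ± 1.28% of the pair with Eno1, and Pygm 7.34 ± 4.55% of the pair with Pygl. Per principal transcript length the Eno3 share was 1.63 ± 0.563% and the Pygm share 3.54 ± 2.28%. These 3 libraries carried the tissue-specific form of the Cox7a and Cox8 subunits at levels near those of the general form. They held little of Cox6a2, Pgam2, Eno3 or Pygm. Pfkm, another muscle glycolytic form, was higher, at 24.9 ± 1.07% of the pair with Pfkl, and 88.3% in replicate 3. Replicate 4 had 25.8% for creatine kinase Ckm against Ckb and 32.5% for the calcium pump Atp2a1 against Atp2a2. Replicates 1 and 2 had at most 0.955% for these pairs. In replicate 3 the shares were 18.0% for Cox6a2, 89.0% for Pgam2, 86.0% for Eno3 and 96.8% for Pygm.

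Hk2, the insulin-responsive hexokinase, made up 94.7 ± 0.525% of the pair with Hk1, and Acacb 73.4 ± 2.25% of the pair with Acaca, again per exonic length without replicate 3 (SD, n = 3). Slc25a4, the ADP/ATP carrier of muscle, made up 42.2 ± 1.52% of the pair with Slc25a5 in those libraries and 84.6% in replicate 3. Cpt1b, which passes long-chain fatty acids to carnitine at the mitochondrial surface, had only 22.6, 22.2, 16.2 and 19.6 CPM. Other annotated genes overlap 81.4% of its exonic bases, so its level is uncertain. Ldhb, the lactate dehydrogenase form of oxidative tissue, made up 49.998 ± 3.11% of the pair with Ldha without replicate 3 and 30.5% in replicate 3. Per principal transcript length without replicate 3, the Ldhb share was 39.1 ± 2.98% and the Acacb share 62.8 ± 2.68%.

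Signalling from noradrenaline to cyclic AMP took 0.752%, 0.817%, 0.583% and 0.785% of the counts, and Gnas gave 48.4% of them. Adrb3, the beta-3 adrenergic receptor of adipocytes, had 154, 275, 255 and 372 CPM, and Prkar2b, of the protein kinase A holoenzyme, had 925, 937, 731 and 1087 CPM. Adrb3 was lowest in replicate 1 and highest in replicate 4. Kcnk3, a potassium channel of brown adipocytes, had 737, 904, 426 and 769 CPM. Letmd1, a mitochondrial protein of brown fat, had 431, 489, 266 and 457 CPM. For Kcnk3 and Letmd1 replicate 3 was lowest.

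Of 25 genes known to be induced in brown fat by acute cold, 23 had at least 1 CPM in every library and 13 a mean of at least 100 CPM. Among the 16001 genes in no class, again a low comparison, 9624 and 760 did so. With no library from the warm, these levels cannot show an induction. Dio2, which makes active thyroid hormone, had 223, 128, 128 and 209 CPM, and Ppargc1a, the coactivator of mitochondrial biogenesis, had 146, 84.3, 107 and 94.1 CPM. Angptl4, which restrains lipoprotein lipase, had 457, 912, 452 and 640.1 CPM, and Vegfa, the main angiogenic factor, had 458, 514, 377 and 483 CPM. Replicate 1 was highest for Dio2 and Ppargc1a and replicate 2 for Angptl4 and Vegfa. Fgf21, an endocrine factor, had 39, 18, 12 and 20 counts, at most 1.07 CPM, and Bmp8b, a secreted factor of thermogenic fat, had 0, 4, 0 and 2 counts. A count of 0 allows up to 3 counts, which is 0.0694 to 0.0891 CPM in these libraries, for counting error only. Replicate 1 was the highest library for 13 of the 22 list members with a mean of at least 10 CPM, against 1686 of all 8437 genes at that level.

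Transcription factors of the adipocyte had moderate read shares. Cebpa, which drives adipocyte differentiation, had 485, 701, 397 and 504 CPM, and Pparg, its partner, 234, 295, 176 and 284 CPM. Ppara, a regulator of fatty acid oxidation, had 106, 50.4, 34.8 and 60.7 CPM, and Prdm16, which specifies the brown lineage, 14.1, 40.1, 13.7 and 36.6 CPM. Prdm16 was lower in replicates 1 and 3 than in replicates 2 and 4. Among secreted proteins Apoe, a lipoprotein component, had 1480.1 ± 209 CPM, and Cfd, the adipocyte protease adipsin, 1201 ± 221 CPM (SD, n = 4).

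Panels of genes known from particular depots were low. The 4 genes of the interscapular brown depot had at least 1 CPM in every library, as did 9624 of the 16001 genes in no class. Among them Ebf3 had 43.8, 37.9, 27.8 and 34.9 CPM, Zic1 9.64, 4.75, 3.97 and 5.11 CPM and Lhx8 3.47, 1.40, 3.07 and 3.88 CPM. Of 7 genes of beige adipocytes, Klhl13 and Cd40 had at least 1 CPM in every library, with 4.12, 2.11, 5.41 and 2.27 CPM and 2.35, 2.32, 1.31 and 1.09 CPM. Tmem26 and Cited1 had at most 0.238 CPM. Hoxc9, a gene of posterior body position, had 0 counts in the 4 libraries. Among genes of white fat Lep, the hormone leptin, had 3.33, 9.68, 1.40 and 3.35 CPM.

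Part of the white fat panel was higher in replicate 3, and next in replicate 4. Retn, the hormone resistin, had 41.5, 30.1, 109 and 71.9 CPM, and Nnat, an imprinted membrane protein, 4.83, 4.04, 32.1 and 15.3 CPM. Slc7a10, an amino acid transporter of white adipocytes, had 2.73, 2.97, 17.0 and 9.11 CPM, and Agt, angiotensinogen, 1.42, 1.96, 23.1 and 4.42 CPM. Replicate 3 was highest and replicate 4 second for each of these 4 genes, whereas Lep was lowest in replicate 3 and Hoxc8 highest in replicate 2. The summed share of the 8 panel genes in the table was 0.00550%, 0.00522%, 0.0184% and 0.0105%, and its part in other results was not tested.

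Cells other than adipocytes were visible at low shares. In whole tissue, fewer cells of a type and less RNA per cell cannot be told apart. Endothelial markers took 0.684%, 0.799%, 0.539% and 0.722%, led by the water channel Aqp1 with 851, 1429.6, 777 and 1087 CPM. Pericytes and smooth muscle took 0.125 ± 0.0105% (SD, n = 4), and Rgs5, a pericyte gene, gave 44.2% of that class. Collagens and matrix took 0.886 ± 0.0576%, with Sparc, a matrix glycoprotein, at 1101, 979, 1140.5 and 1139 CPM. Replicate 3 was lowest for 27 of the 35 endothelial genes with a mean of at least 10 CPM and for 18 of the 70 matrix genes, against 3790 of 8437 over all genes.

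Macrophages and dendritic cells took 0.0859%, 0.0795%, 0.0816% and 0.0623% of the counts, and lymphocytes, granulocytes and mast cells 0.0110%, 0.0203%, 0.00748% and 0.00509%. The last class was highest in replicate 2, as were its antibody genes Igha, with 14.7, 39.3, 4.06 and 4.76 CPM, and Igkc, with 9.94, 27.8, 4.47 and 3.33 CPM. Haemoglobin and red cell genes took 0.0847%, 0.0424%, 0.0767% and 0.0898%, and replicate 2 was the lowest. Schwann cell and nerve genes took 0.0249 ± 0.00296%, and skin, gland and mesothelium 0.00116 ± 0.000177% (SD, n = 4).

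Skeletal muscle transcripts separated replicate 3 from the rest. The 80 genes of the muscle class took 0.0177%, 0.0229%, 6.77% and 0.0671% of the counts (1.72 ± 3.37%, SD, n = 4), or 0.0359 ± 0.0271% without replicate 3 (SD, n = 3). The Wilson 95% interval of the share was 6.76% to 6.78% in replicate 3 and 0.0663% to 0.0679% in replicate 4, for counting error only. Of the 80 genes 79 were highest in replicate 3, and 59 had under 1 CPM in both replicate 1 and replicate 2. Start regions of the leading thin and thick filament genes are shown because their counts carry this result. They are from RefSeq on GRCm38.p6, chr8:123894726-123895025 on the minus strand for Acta1 and chr11:67237562-67237861 on the plus strand for Myh4, in the same frame and with capitals for the same spellings.
Acta1: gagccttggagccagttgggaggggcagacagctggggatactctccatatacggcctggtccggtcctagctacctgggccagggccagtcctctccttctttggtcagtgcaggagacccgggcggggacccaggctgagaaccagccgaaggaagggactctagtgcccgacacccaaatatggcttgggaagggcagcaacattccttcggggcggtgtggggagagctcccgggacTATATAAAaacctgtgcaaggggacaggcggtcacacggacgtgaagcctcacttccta
Myh4: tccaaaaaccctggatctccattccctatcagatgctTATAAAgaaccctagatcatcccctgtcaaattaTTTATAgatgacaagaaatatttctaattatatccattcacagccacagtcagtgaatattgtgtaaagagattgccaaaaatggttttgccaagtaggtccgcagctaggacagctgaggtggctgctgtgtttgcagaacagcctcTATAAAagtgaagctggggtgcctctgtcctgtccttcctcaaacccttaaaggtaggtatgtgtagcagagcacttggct
In Acta1 both spellings overlap in 1 run, at positions -9 and -7, and in Myh4 the match nearest to the start site begins at position -31.

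Acta1, the actin of skeletal muscle, had 0.655, 0.475, 9769.8 and 52.7 CPM, which made it the gene of rank 7 in replicate 3 and of rank 12579 in replicate 1. Myh4, the heavy chain of the fastest fibres, had 0.437, 0.0891, 7494 and 65.9 CPM. Atp2a1, the calcium pump of fast fibres, had 0.655, 0.861, 5987 and 53.0 CPM. For each of the 3 genes replicate 3 was far above, replicate 4 lay between, and replicates 1 and 2 were under 1 CPM. The next were the troponin subunits Tnnt3 and Tnni2, parvalbumin (Pvalb), creatine kinase (Ckm) and a myosin light chain (Mylpf), with 1793 to 4178 CPM in replicate 3 and 11.3 to 33.9 CPM in replicate 4. Ttn, the giant elastic protein titin, had 2422 CPM in replicate 3 and 17.5 CPM in replicate 4. Tpm2, a tropomyosin that other tissues also express, had 25.4, 23.0, 4003 and 67.6 CPM.

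The muscle RNA was mostly of fast fibres. In replicate 3 Myh4 gave 84.8%, Myh1 10.8%, Myh2 3.50% and Myh7, the slow heavy chain, 0.895% of the counts of 6 sarcomeric heavy chain genes. The 13 fast-fibre genes took 0.00388%, 0.00483%, 3.17% and 0.0285% of the counts and the 10 slow-fibre genes 0.0282%, 0.0277%, 0.220% and 0.0294%. Without replicate 3, 6 of these 10 had a mean under 1 CPM. The slow share of the other libraries thus rested on the remaining members and is no measure of slow fibres there. The slow genes Myl2, Tnnt1, Tnni1 and Myh7 had 281, 236, 169 and 79.1 CPM in replicate 3 and at most 0.218 CPM in the other 3 libraries. In replicate 4 the fast panel therefore lay above replicates 1 and 2 and these 4 slow genes stayed near 0. Tnnc2, the fast troponin C, had at most 0.321 CPM in any library, and 74.0% of its exonic bases overlap another gene, so its level is uncertain.

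**Figure D4:**
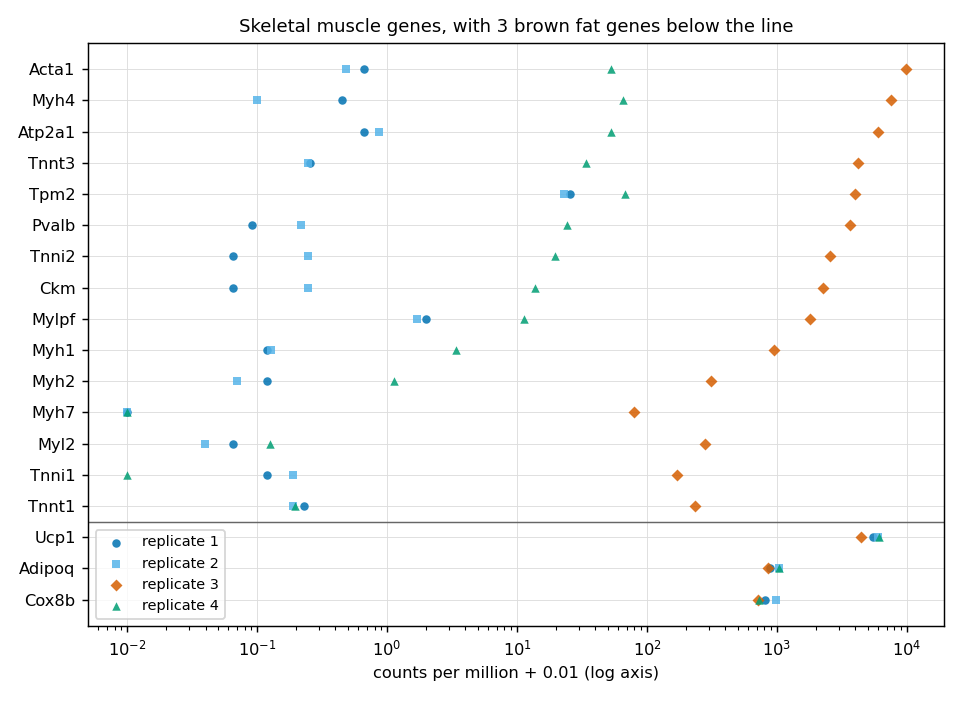
CPM plus 0.01 (x axis, log scale) of 15 skeletal muscle genes and, below the line, 3 genes of brown fat (y axis), with 1 symbol for each control library. Replicate 3 has the highest value of each muscle gene and replicate 4 lies between it and replicates 1 and 2 for the upper 11, while Ucp1 is lowest in replicate 3, as is Adipoq on this scale.

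Genes outside the muscle class also differed in replicate 3. A total of 238 genes had at least 20 CPM there and at least 5 times the level of any other library, and they took 9.48% of its counts against 0.114%, 0.122% and 0.177% in replicates 1, 2 and 4. These genes were chosen for being high in replicate 3, so the direction of that gap was set by the choice. The muscle class held 70 of them and 143 were in no class. Whether those 143 are muscle genes was not tested. Cox6a2 had 0.0546, 0, 351 and 1.55 CPM, Eno3 18.8, 16.8, 1747 and 28.0 CPM and Pygm, the glycogen phosphorylase of muscle, 8.27, 5.49, 2049.9 and 18.5 CPM. Slc25a4 had 368, 415, 1879 and 397 CPM. For these 4 genes replicate 3 stood alone above the others.

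Reads taken by muscle genes lower the CPM of other genes in replicate 3, so brown fat genes were also scaled without the muscle class and the 238 genes, a choice made after the data were seen. Within a library this scaling multiplies the values of all other genes by the same factor, so it does not alter how these genes stand to each other. Ucp1 then had 5465, 5955, 4899.9 and 6063 CPM, Dgat2 1816, 2396, 1081 and 1972 CPM and Gpd1 2838, 3007, 1782 and 3248 CPM, with replicate 3 below the other libraries. Fasn had 3521, 3122, 1971 and 4384 CPM and Kcnk3 737, 905, 470.2 and 771 CPM, with the same library lowest. Adipoq, whose gap had been small, had 884, 1046, 944 and 1031 CPM.

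The median ratio of replicate 3 to the mean of the other libraries was 0.911 before this scaling and 1.00 after it, over 8251 genes with a mean of at least 10 CPM in those 3. On the second scale, 19 brown adipocyte genes had a median ratio of 0.834. The 27 fatty acid oxidation genes had 0.834, the 35 endothelial genes 0.827 and the 17 triglyceride synthesis genes 0.828. The 83 genes of the cytosolic ribosome had 1.15 and the 71 genes of collagens and matrix 1.14. Genes of fat oxidation and storage thus lay below the median of all genes in replicate 3, and those of the ribosome and matrix above it. Neither position was particular to them. The 43 genes of interferon response and MHC class I had 0.722, and the 67 translation factors 1.17. The 22 genes of fatty acid uptake and activation had 0.956, nearer to the median. The part of muscle tissue in these values was not tested.

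The libraries ranked their genes alike apart from replicate 3. Spearman's rho of CPM across all genes, which are not independent replicates and share the counting and the annotation, was 0.981 to 0.982 between replicates 1, 2 and 4 and 0.942 to 0.956 between any of them and replicate 3. The first 100 genes of each library shared 92 to 94 genes between pairs of replicates 1, 2 and 4, and 71 genes were in the first 100 of all 4. Another 23 were there in replicate 3 only, and 15 of these were in the muscle class. The common biological coefficient of variation, edgeR's estimate of the relative spread between libraries beyond counting error, was 0.325 with 4 libraries and 0.216 without replicate 3.

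Among genes with a mean of at least 10 CPM, 451 of 8437 (5.35%) had a coefficient of variation, the SD over the mean, above 0.5. Replicate 3 was the highest library for 341 of these. Without it, 137 of 8286 genes (1.65%) passed the same value, and replicate 1 was the highest for 87 of them. With all libraries the 10 genes with the largest coefficient were highest in replicate 3, namely Myh7, Klhl40, Myl2, Csrp3, Nctc1, Tnni1, Myoz2, Lmod2, Tnnt1 and Ankrd2, most of them sarcomere genes. Without replicate 3 the 10 were Myh4, Tnnt3, Acta1 and Atp2a1, highest in replicate 4, the heat shock genes Hspa1a and Hspa1b, the nuclear receptors Nr4a1 and Nr4a2, and the pseudogenes BC002163 and Gm5514.

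By median coefficient without replicate 3, the steadiest of the classes compared were proteasome and ubiquitin at 0.0678 and lipid droplets and lipolysis at 0.0746, against 0.101 over all genes. With all libraries they had 0.0990 and 0.177, against 0.133, so lipid droplets and lipolysis was then less steady than the median. Without replicate 3 the least steady were skeletal muscle at 0.650, interferon response and MHC class I at 0.387, haemoglobin and red cells at 0.374, and immediate early and stress response at 0.297. Fatty acid oxidation had 0.0953 and the nuclear genes of complexes II to V 0.0997. Genes of fuel oxidation lay close to the median of all genes in these 3 libraries.

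Immediate early and heat shock genes were among those that differed most, and the ones given here were chosen after their values were seen. Nr4a1, a nuclear receptor that signals induce within minutes, had 665, 33.0, 347 and 29.0 CPM. Nr4a2, its relative, had 123.1, 10.2, 27.9 and 7.38 CPM, and Atf3, a stress-induced factor, had 50.7, 5.70, 35.7 and 3.24 CPM. The inducible chaperone Hspa1a had 155, 3.56, 74.2 and 6.96 CPM, and its near-identical copy Hspa1b had 273, 5.64, 172 and 25.6 CPM, so reads may be split between the pair. Hsph1, a cochaperone, had 200, 27.5, 175 and 106 CPM, and Sik1, a kinase induced by cyclic AMP, 227, 46.4, 97.9 and 50.1 CPM. For these 7 genes both replicates 1 and 3 lay above both replicates 2 and 4. Fos, the classic immediate early gene, had 5.52, 2.70, 93.3 and 2.13 CPM and was high in replicate 3 alone. Of the 35 genes of the immediate early and stress class with a mean of at least 10 CPM, replicate 1 was highest for 22, against 1686 of 8437 over all genes. Replicate 3 was highest for 7 and lowest for 8 of the class, against 1953 and 3790 of 8437 over all genes. With muscle reads left out of the total, 32 class genes had a median ratio of replicate 3 to the other libraries of 1.01. Over all genes that ratio was 1.00. The high values of the chosen genes in replicate 3 were thus not shared across the class.

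The opposite order was seen for other genes, also chosen after their values were seen. Fkbp5, which glucocorticoids are known to induce, had 25.3, 210.2, 66.7 and 141 CPM, and Zbtb16, another such gene, 22.6, 139.6, 34.5 and 151 CPM. Pnpla3, a lipogenic protein of lipid droplets, had 3.88, 37.5, 21.1 and 51.3 CPM. For these 3 genes both replicates 1 and 3 lay below both replicates 2 and 4.

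The class of interferon response and MHC class I took 0.577%, 0.522%, 0.445% and 0.467% of the counts, with replicates 1 and 2 above replicates 3 and 4. Single genes, again chosen after their values were seen, differed more. Ifit1 had 25.04, 6.56, 4.65 and 4.49 CPM, Isg15, a ubiquitin-like protein, 19.5, 6.59, 3.89 and 4.53 CPM, and Irf7, a factor that amplifies the response, 48.6, 20.8, 21.9 and 17.7 CPM. Replicate 1 was highest for each of these 3. Another set was higher in replicates 1 and 2 than in 3 and 4, with the GTPases Iigp1 at 51.5, 69.6, 25.1 and 20.1 CPM and Igtp at 51.3, 64.7, 21.01 and 15.9 CPM, and the chemokine Cxcl9 at 24.7, 72.2, 20.0 and 16.4 CPM. Over the 41 genes of the class with a mean of at least 10 CPM, replicate 1 was highest for 23 and replicate 2 for 12. Over all 8437 genes at that level, replicate 1 was highest for 1686 and replicate 2 for 2772. The class count of replicate 2 was thus not above its share over all genes.

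**Figure D5:**
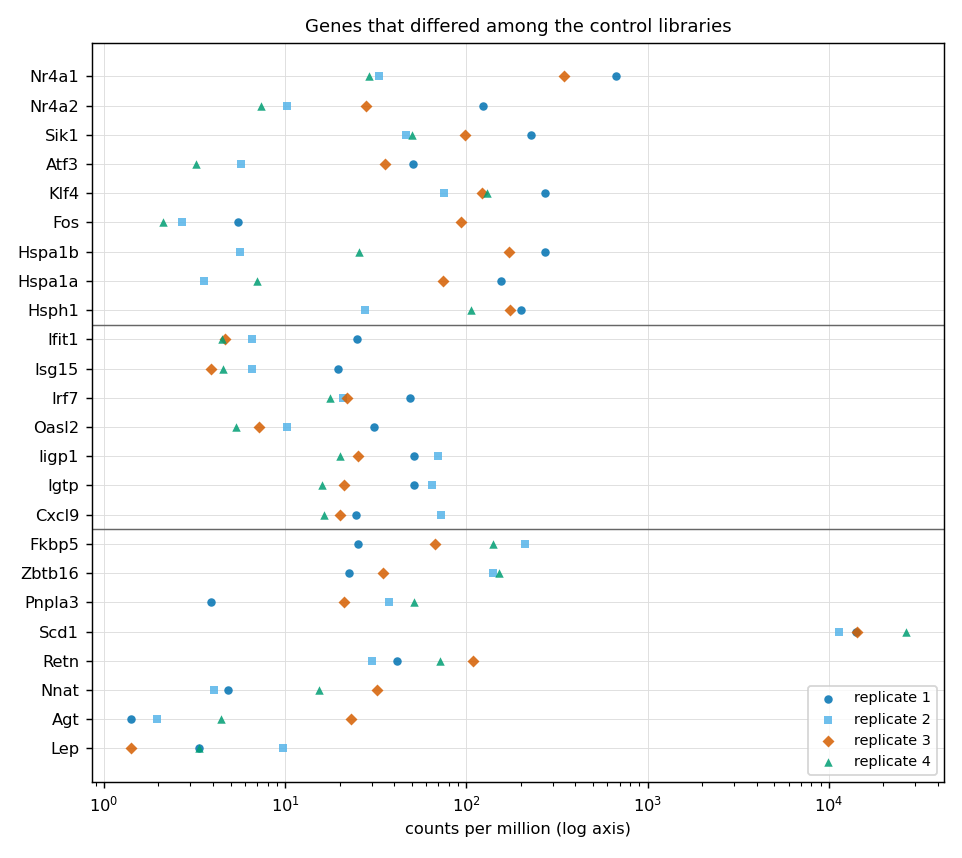
CPM (x axis, log scale) of genes chosen after their values were seen (y axis), with 1 symbol for each control library; lines separate immediate early and heat shock genes, interferon-induced genes and others. Replicates 1 and 3 lie to the right in the upper set apart from Fos, which is high in replicate 3 alone, and Klf4, where replicate 3 has 122 CPM and replicate 4 130.3 CPM.

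A few genes differed widely between libraries other than replicate 3. Outside the muscle class, 11 genes reached 10 CPM in a library among replicates 1, 2 and 4 and differed at least 20 times from another of them. Gbp2b, an interferon-induced GTPase, had 17.9, 74.9, 0 and 0 CPM, and Mndal, an interferon-induced DNA-binding protein, 0.273, 8.32, 0.438 and 16.5 CPM. Gbp2b was counted in replicates 1 and 2 alone, and Mndal mainly in replicates 2 and 4. The processed pseudogenes BC002163, with 106, 1.75, 0.760 and 0.809 CPM, Gm5514, with 0.464, 1.13, 0.731 and 45.9 CPM, and Gm9825, with 14.0, 13.8, 13.2 and 0.162 CPM, each set a single library apart. Pseudogenes share most of their sequence with a parent gene, so these values are uncertain. A gene without a symbol in the annotation used (ENSMUSG00000119584) had 2415, 1660.2, 3116 and 1707 CPM.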

How the data were processed

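The deposited table holds read counts per gene, which the authors made from RNA sequencing libraries prepared with poly(A) capture and dUTP strand marking, per the labels' protocols. Per the submitters' processing notes, reads were placed on GRCm39. Which aligner, counter and annotation served is not given in the sources used here. The 4 WT columns were used, with 33672272 to 43253559 counts over 18395 genes, so counting error was small beside the spread between libraries for nearly every class.

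CPM is a gene's count per 1000000 counts of its library, and no test between groups was made, since 1 group is described. Dixon's rule for an outlying value was applied to class shares and named genes. TPM divides by exonic length first. Names (18321 of 18395 IDs), lengths and exonic overlaps came from GENCODE M21, which is on GRCm38, and no coordinates were carried between builds. Named genes were the 4 markers, the 25 highest by mean CPM, the 10 highest by TPM, up to 4 leading genes of a described class, any member of a described panel, the 10 largest coefficients of variation with and without replicate 3, and the 10 highest muscle genes of replicate 3. Other genes were chosen after their values were seen. Some genes are not reported here. The members and lists were chosen with earlier results of these data known. TMM factors and dispersions came from edgeR 4.0.16, and size factors from DESeq2 1.42.0, in R 4.3.3. Other values were computed with Python 3.11.15 and pandas 2.3.3. The estimators were tested on simulated data. Alternatives were each replicate left out, other totals, other lengths, other scalings and other filters.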

Additional observations from a re-analysis of the deposited data

Results flagged for a closer look

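Each class share and each named gene was looked at for a library far from the other 3, with the gap to the nearest library compared with the whole range. Chance flags about 1 in 20 groups, and 2 of 45 class shares were picked out, which is near that rate. Among named genes 41 of 156 were picked out, 32 of them with replicate 3 highest. Many of these genes were named for their spread or for their level in replicate 3, so this count is not comparable with the chance rate. The shares were skeletal muscle, at 6.77% in replicate 3, and proteasome and ubiquitin, at 0.834% in replicate 3.

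Replicate 3 stood highest for sarcomere and muscle genes, which had CPM values there of 9770 for Acta1, 7494 for Myh4, 5987 for Atp2a1, 4178 for Tnnt3, 4003 for Tpm2, 3649 for Pvalb, 2573 for Tnni2, 2422 for Ttn, 2279 for Ckm and 1793 for Mylpf. It also stood highest for Myh1 at 957 CPM, Csrp3 at 311 CPM, Myh2 at 309.8 CPM, Myl2 at 281 CPM, Tnnt1 at 236 CPM, Ankrd2 at 178 CPM, Lmod2 at 174 CPM, Tnni1 at 169 CPM, Myoz2 at 103 CPM, Myh7 at 79.1 CPM, Klhl40 at 66.5 CPM, Nctc1 at 40.0 CPM and Tnnc2 at 0.321 CPM.

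Genes of energy metabolism with replicate 3 far above the rest were Aldoa at 7681 CPM, Pygm at 2050 CPM, Slc25a4 at 1879 CPM, Eno3 at 1747 CPM, Pgam2 at 595 CPM, Atp2a2 at 455 CPM and Cox6a2 at 351 CPM. Hadhb, of fatty acid oxidation, was far below the rest in replicate 3 at 1384 CPM. Fos, at 93.3 CPM, and Agt, at 23.1 CPM, were also far highest in replicate 3.

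Other libraries stood apart for fewer genes. In replicate 1 mt-Nd4 was highest at 26220 CPM, BC002163 at 106 CPM, Irf7 at 48.6 CPM and Ifit1 at 25.04 CPM. In replicate 2 Cox7a1 was highest at 358 CPM and Cxcl9 at 72.2 CPM. In replicate 4 Gm5514 was highest at 45.9 CPM and Gm9825 lowest at 0.162 CPM.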

How the results depend on the processing

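Leaving mitochondrial genes out of the total moved the share of counts assigned to a class from 61.4% to 50.7%, the nuclear respiratory chain from 5.04% to 6.44%, Ucp1 from 5474 to 7002 CPM and the number of genes that give 50% of the counts from 233.5 to 559. Division by exonic length put the assigned share at 75.7%, the mitochondrial genome at 41.0% instead of 21.7%, the respiratory chain at 7.82%, Ucp1 at 7652 TPM and the genes for 50% at 36.0. With principal transcript length, chosen after seeing the data, these were 72.8%, 31.2% and 9.39%, with 83.75 genes for 50%. These shifts follow from the other denominators. The common biological coefficient of variation of 0.325 was 0.495 with no filter, and 0.216 to 0.345 with each replicate left out. The count of 451 genes above a coefficient of variation of 0.5 was 1026 at a mean of at least 1 CPM, and 137 to 538 with each replicate left out. In both ranges the lowest value is the one without replicate 3. Class shares moved by more than 1 SD for 38 of 43 classes without mitochondrial genes, 39 of 45 per exonic length and 34 of 45 per principal length. Leaving out 1 of 4 libraries cannot move a mean by 1 SD, so this measure says nothing about single libraries for any class. No paired analysis was possible because 1 group is described and no contrast was tested. Depth limits genes with few counts, such as Bmp8b.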
